A study of Homo sapiens with 6 samples.

Results

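The H3K4me2 regions described here are those present in the vehicle list of LNCaP cells and in neither of the lists made after treatment with the LSD1 inhibitor GSK2879552. All records of the 3 lists on chromosomes 1 to 22 were pooled, and records that overlapped by at least 1 bp were merged into union regions. A union region was kept when it held a vehicle record but no GSK 4 h and no GSK 24 h record. This left 8051 of 147111 union regions (5.47%, 95% interval 5.36 to 5.59). Each of the 8051 was a single vehicle record, so they made up 8.28% of the 97240 vehicle regions. Of the other vehicle regions, 76572 overlapped records of both GSK lists, 5467 overlapped a GSK 4 h record but no GSK 24 h record, and 7150 overlapped a GSK 24 h record but no GSK 4 h record.

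LNCaP is an androgen-responsive prostate cancer (PCa) line, kept here in charcoal-stripped serum to remove hormones. H3K4me2 was profiled by chromatin immunoprecipitation sequencing (ChIP-seq) in 6 samples, 2 replicates each for cells given vehicle without the inhibitor, GSK2879552 for 4 h and GSK2879552 for 24 h. The labels of the GSK samples also name the androgen DHT, whereas the treatment protocol names the inhibitor alone, so that an androgen effect and an inhibitor effect cannot be told apart. All groups are a single cell line, and the labels do not say whether the replicates were separate cultures. The authors combined both replicates of a group into 1 list of records. No value therefore carries an error between replicates, and no test between conditions could be made.

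H3K4me2 is the dimethylated form of lysine 4 of histone H3, found at promoters and at enhancers that are active or poised. LSD1 (KDM1A) removes methyl groups from mono- and dimethylated H3K4, and in PCa cells it also works as a coactivator of the androgen receptor. The question for these regions was where in the genome, and at what strength, H3K4me2 was recorded under vehicle without a counterpart after the inhibitor.

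The regions were chosen by the presence and absence of records in the 3 lists, and weak regions are missed more easily than strong ones, so their strength is given as a description. Strength is given by 4 values. The fold enrichment is a ratio of the summit over the local background of the peak caller. The -log10 q-value is the caller's significance, for which higher is stronger. The summit pileup is the number of fragments covering the summit, recovered from the fold and the p-value. The background is that of the caller at the summit, as a multiple of the genome-wide level of the list. The caller's settings were not given, so this background may itself count H3K4me2 reads around the summit.

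Most vehicle-only regions were short and weak. Their median length was 283 bp (quartiles 234 and 374), against 565 bp (370 and 871) for vehicle regions found in all 3 lists. In the vehicle list no record was shorter than 221 bp, the inferred fragment length, and 1332 of the vehicle-only regions (16.5%) had exactly that length, against 2.47% of regions found in all 3 lists. Together they covered 2.71 of the 58.3 Mb of the vehicle list. The median fold enrichment was 4.22 (3.60 to 4.89) for vehicle-only regions and 5.37 (4.22 to 7.15) for regions in all 3 lists. A median summit of a vehicle-only region was covered by 15 fragments (12 to 20), compared with 26 (17 to 50) for regions in all 3 lists. The lowest pileup called was 8 fragments in the vehicle list and 7 in each GSK list.

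The weakness of these regions was shared by both groups of vehicle regions missing from a single GSK list. Regions held by vehicle and GSK 4 h had a median fold enrichment of 4.13 and a median pileup of 15 fragments. For regions held by vehicle and GSK 24 h these values were 4.22 and 14 fragments. Where the groups parted was in the strong tail. A -log10 q-value of at least 30 was reached by 155 vehicle-only regions (1.93%), by 476 of those held by vehicle and GSK 4 h (8.71%) and by 15 of those held by vehicle and GSK 24 h (0.210%). The figure was 18.1% for regions in all 3 lists. The number of 155 depended on what counted as shared, as it was 59 when a GSK record within 1 kb counted, 513 when less than 50% coverage by each GSK list did not count, and 258 with lists of equal length. The other groups were not recomputed under these settings. Among vehicle regions of this strength, by the 1 bp rule, absence from the GSK 24 h list alone was thus recorded more often than absence from both, and absence from the GSK 4 h list alone was rare.

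**Figure D1:**
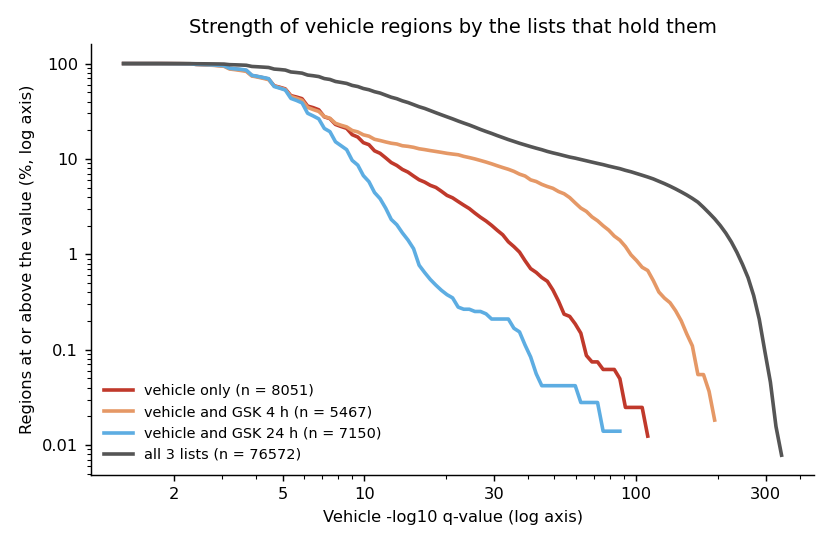
Share of vehicle regions (%, log axis) at or above a vehicle -log10 q-value (log axis), with one line for each combination of lists that held the region. The vehicle-only line falls to 1.93% at a value of 30, between the lines for vehicle and GSK 4 h (8.71%) and for vehicle and GSK 24 h (0.210%).

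The share of vehicle regions that were vehicle-only fell with each step of strength. Of vehicle regions with a -log10 q-value under 5, 3579 of 19994 were vehicle-only (17.9%, 95% interval 17.4 to 18.4). The share was 10.0% (9.68 to 10.3) between 5 and 10 and 3.81% (3.57 to 4.07) between 10 and 20. Above that it was 2.41% (2.10 to 2.78) between 20 and 30 and 2.29% (1.92 to 2.72) between 30 and 50, and these intervals overlap. Only 29 of 3636 regions (0.798%) between 50 and 100 and 2 of 5453 (0.0367%) at 100 or above were vehicle-only. Regions of a -log10 q-value under 10 made up 85.3% of all vehicle-only regions.

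List-only regions of the inhibitor lists had a shorter tail. The GSK 4 h list held 21352 regions found in no other list and the GSK 24 h list held 20809, which were 17.2% and 16.9% of those lists. None of them reached a -log10 q-value of 30, and their highest values were 26.0 (GSK 4 h) and 20.8 (GSK 24 h), against 112 for vehicle-only regions. A fold enrichment of at least 10 was seen at 71 vehicle-only regions, 1 GSK 4 h-only region and 0 GSK 24 h-only regions. The lists themselves differed in this respect, since 14.9% of vehicle, 11.4% of GSK 4 h and 7.72% of GSK 24 h regions reached a -log10 q-value of 30. Within their own list, 1.27% of vehicle-only regions ranked above the 90th percentile of fold enrichment, against 0.122% of GSK 4 h-only and 0.183% of GSK 24 h-only regions. The depth inferred from the records was similar, at 9.43 (vehicle), 10.1 (GSK 4 h) and 8.98 (GSK 24 h) tags per kb, with fragment lengths of 221, 186 and 219 bp, and the part of these differences in the result was not tested.

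The next question was what the inhibitor lists held around the vehicle-only regions. The median distance to the nearest GSK record of either list was 2742 bp, or 4650 bp when only GSK records with a -log10 q-value of at least 5 were used. A GSK record lay within 1 kb of 2921 vehicle-only regions (36.3%, 95% interval 35.2 to 37.3), between 1 and 10 kb from 3373 (41.9%), and farther than 10 kb from 1757 (21.8%, 20.9 to 22.7). Both GSK lists had a record within 1 kb at 1937 regions, only the GSK 4 h list at 523 and only the GSK 24 h list at 461. No GSK record was found within 100 kb of 27 regions. Closeness to another list was not particular to vehicle-only regions, as 36.9% of GSK 4 h-only and 33.5% of GSK 24 h-only regions also lay within 1 kb of a record of another list.

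These neighbouring GSK records mostly stood where vehicle cells had H3K4me2 too. Of the 2460 vehicle-only regions within 1 kb of a GSK 4 h record, the nearest such record overlapped another vehicle region in 1490 cases (60.6%, 58.6 to 62.5). For GSK 24 h this was 1529 of 2398 (63.8%, 61.8 to 65.7). A smaller set had GSK records at a new position beside the vehicle summit. At 351 of the 1937 regions with neighbours in both lists (18.1%), the nearest GSK 4 h and GSK 24 h records overlapped each other but no vehicle region. At these 351 the vehicle summit was covered by a median of 14 fragments, and the GSK summits by 16 at both times. The GSK summits lay a median of 604 bp (4 h) and 617 bp (24 h) from the vehicle summit. All 3 lists therefore held a record of similar pileup at these places, but not at the same position. No share over all GSK records stands beside the 60.6%, 63.8% and 18.1%, so none of them shows an excess or a lack.

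Strong and weak vehicle-only regions differed in their surroundings. Of regions with a -log10 q-value between 5 and 10, 29.0% had a GSK record within 1 kb, and between 10 and 20 the share was 31.2%. It was 56.0% between 20 and 30, 58.9% between 30 and 50 and 72.4% between 50 and 100. Among the 155 regions of at least 30, 96 lay within 1 kb of a GSK record (61.9%, 54.1 to 69.2), against 35.8% (34.6 to 36.9) of the 6869 regions under 10. Only 21 of the 155 were farther than 10 kb from any GSK record. The weakest step did not follow this order, since 42.0% of regions under 5 also had a GSK record within 1 kb. The median background was 1 times the genome-wide level between 5 and 10 and 13.1 times between 50 and 100. Other vehicle regions of the same strength are not set beside these shares. The rise with strength can therefore not be called particular to vehicle-only regions.

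**Figure D2:**
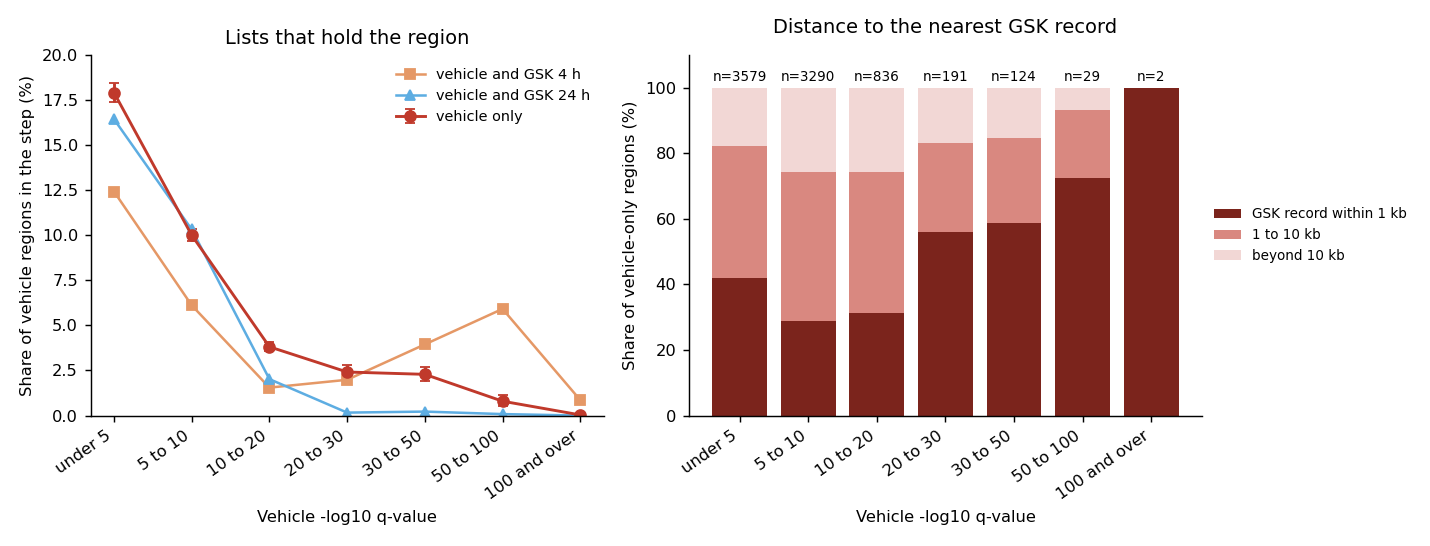
Left, share of vehicle regions (%) in each step of the vehicle -log10 q-value that were vehicle-only (points with Wilson 95% intervals) or were held by vehicle and a single GSK list. Right, share of vehicle-only regions (%) in each step by distance to the nearest GSK record, with the number of regions above each bar, where the share within 1 kb goes from 29.0% between 5 and 10 to 72.4% between 50 and 100.

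Regions close to GSK records were common where the local background was high. At 538 vehicle-only regions the background at the summit was at least 5 times the genome-wide level, and 430 of these (79.9%, 76.3 to 83.1) had a GSK record within 1 kb. At the 3612 regions whose background was the genome-wide level itself, the share was 18.7% (17.5 to 20.02). As the background may count H3K4me2 reads nearby, these shares may only restate how dense the records are around the region. High background was not typical of vehicle-only regions. They made up 3.18% (2.92 to 3.45) of the 16937 vehicle regions with a background of at least 5 times the genome-wide level. Of the 25888 vehicle regions at the genome-wide level they made up 13.95% (13.54 to 14.38), against 8.28% of all vehicle regions. Regions in high background need a higher pileup to be called, and their fold enrichment is low for their height. A pileup of at least 30 fragments was reached by 875 vehicle-only regions (10.9%), whereas the upper quartile of the whole vehicle list was 43 fragments.

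At 225 vehicle-only regions (2.79%), both GSK lists had a record within 1 kb on each side, so that the vehicle summit faced a gap in the inhibitor lists. The median gap between the flanking records was 961 bp at 4 h and 1129 bp at 24 h. These flanked regions had a median pileup of 56 fragments, a background 6.91 times the genome-wide level and a median fold enrichment of 3.55. The vehicle list also had records within 1 kb on both sides of 151 of them (67.1%, 60.7 to 72.9), and on neither side of 15. Flanked regions were 1.37% of the regions with a -log10 q-value under 10 but 25.2% (19.0 to 32.5) of those of at least 30. Here too, no share for other vehicle regions of the same strength is given.

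The 12 vehicle-only regions with the highest -log10 q-value lay on 10 chromosomes, with values from 62.7 to 112 and summit pileups from 87 to 314 fragments. All positions are in hg19, counted from 1. Of the 12, 9 had a GSK record within 1 kb. The strongest was chr10:22609261-22609975, with a -log10 q-value of 112, a fold enrichment of 6.41 and a pileup of 252 fragments. Its background was 18.5 times the genome-wide level. The nearest GSK records began 54 bp (4 h) and 62 bp (24 h) to its right, and to its left they were 3135 bp (4 h) and 3214 bp (24 h) away.

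Around this region the next vehicle record to the right had a summit height of 78.7 times the genome-wide background, compared with 121 at the vehicle-only summit. The GSK records nearest to that neighbour had heights of 36.1 (4 h) and 28.0 (24 h). The vehicle-only summit was therefore the highest of a cluster of 3 vehicle records, and the inhibitor lists kept only the lower records on its right.

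A similar picture was seen at the second region, chr2:60778688-60779134, with a -log10 q-value of 110 and a pileup of 235 fragments. It had a height of 113 times the genome-wide background. GSK records stood 583 bp (4 h) and 625 bp (24 h) to its left, with heights of 40.4 and 27.0, where the vehicle list had no record in the 3000 bp left of the summit. To its right the nearest records were 370 bp (4 h) and 1531 bp (24 h) away. The inhibitor lists thus held records on both sides of this summit but none on it.

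**Figure D3:**
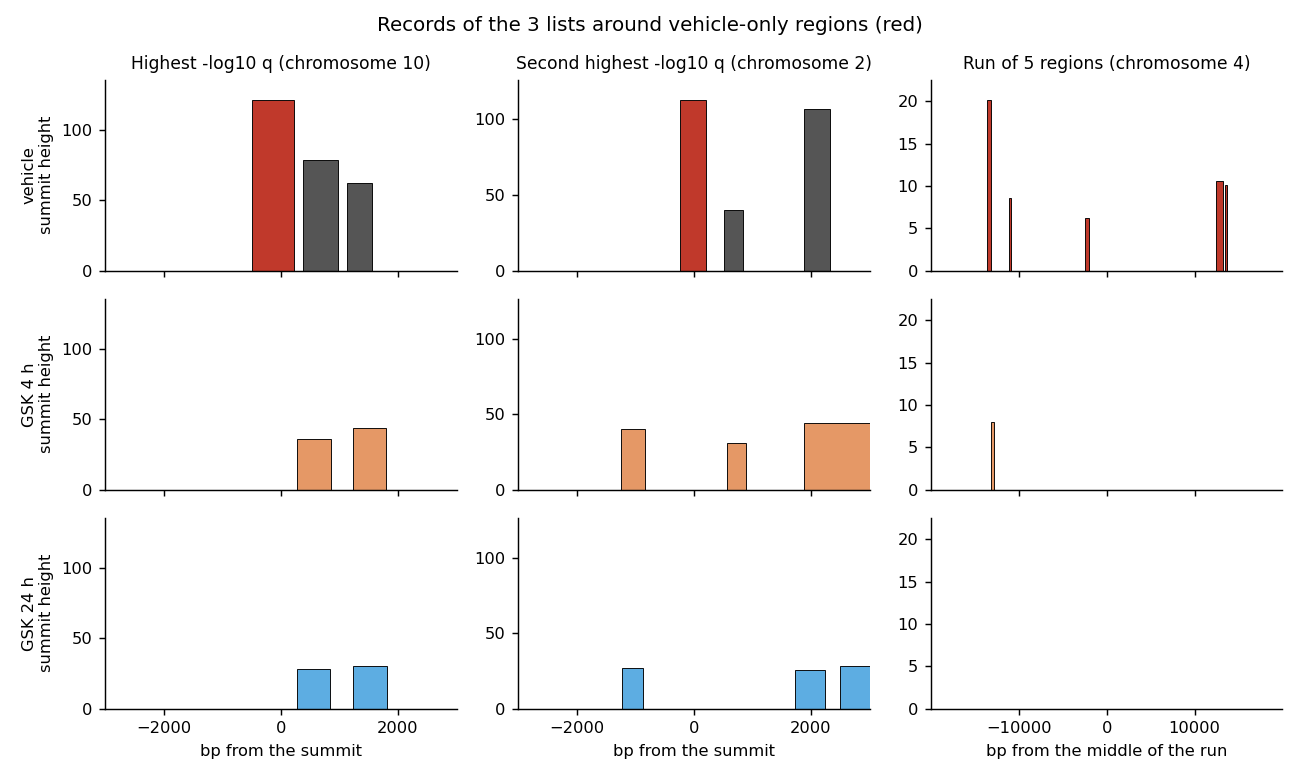
Records of the vehicle, GSK 4 h and GSK 24 h lists (rows) drawn to scale around the vehicle-only regions with the highest and second highest -log10 q-value and around a run of 5 vehicle-only regions (columns), against distance in bp. Bar height is the summit pileup as a multiple of the genome-wide background of the list, and vehicle-only regions are red, with heights of 121 and 113 at the centres of the first and second columns. Bars reaching the edge of a panel go on beyond it.

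Other regions among the 12 lay in still higher background. Chromosome 19 held a pair of them near each other, chr19:1248911-1249621 and chr19:1269315-1269785. The first had the highest pileup of all vehicle-only regions, 314 fragments, but a fold enrichment of only 3.88, as its background was 38.5 times the genome-wide level. The second had a pileup of 258 fragments, a fold enrichment of 4.86 and GSK records on both sides, at 313 and 290 bp (4 h) and at 343 and 207 bp (24 h). The region chr16:85589943-85590358, with a pileup of 238 fragments, was likewise flanked in both lists. By fold enrichment these regions ranked between the 20.3 and 46.0 percentiles of the vehicle list, so a ranking by fold would have passed over them.

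The remaining strong regions near GSK records were chr4:30723415-30723975 (183 fragments), chr9:112082975-112083548 (179), chr7:155602368-155602843 (172) and chr3:9956857-9957540 (133). Their nearest GSK 4 h records lay 181, 477, 235 and 663 bp away, and their nearest GSK 24 h records 284, 548, 344 and 254 bp away. In 3 of the 12 no GSK record was within 1 kb. These were chr8:144358025-144358632 (192 fragments, nearest GSK record at 1748 bp), chr14:104551688-104552344 (87 fragments, 2038 bp) and chr9:126803162-126803593 (123 fragments, 2054 bp). The chromosome 14 region had the highest fold enrichment of the 12, at 12.4.

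Isolated vehicle-only regions formed a contrasting set. Of the 1757 regions farther than 10 kb from any GSK record, 82.7% had the genome-wide background, their median fold enrichment was 4.80 and their median pileup 14 fragments. That background share may in part restate their distance from other records. The regions within 1 kb of a GSK record had a median fold enrichment of 3.88 and a median pileup of 16 fragments. Of the 71 vehicle-only regions with a fold enrichment of at least 10, 36 were isolated (50.7%, 39.3 to 62.0) and 11 had a GSK record within 1 kb. The highest pileup of an isolated region was 62 fragments, against 314 for a region within 1 kb of a GSK record.

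By -log10 q-value, the leading isolated region was chr2:59293927-59294444, with a pileup of 62 fragments and a fold enrichment of 18.1, the highest of all vehicle-only regions. It was followed by chr12:22529604-22530244, which had a pileup of 61 fragments, a fold enrichment of 15.1 and GSK records no nearer than 31256 bp. Next was chr22:41633689-41634421, with 58 fragments, a fold enrichment of 13.4 and GSK records no nearer than 17884 bp. These 3 were picked after their values were seen. At the genome-wide background the lowest pileup called in either GSK list was 7 fragments.

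The farthest from any GSK record among regions with a -log10 q-value of at least 10 was chr7:154001922-154002421. It was covered by 35 fragments with a fold enrichment of 11.7, and the nearest GSK records were 117734 bp (4 h) and 117762 bp (24 h) away. The nearest other vehicle record was about as far, at 117867 bp. The second, chr10:7708635-7709141, had 43 fragments, a fold enrichment of 14.3 and its nearest record of any list 104713 bp away. The third, chr11:88798942-88799293, had 20 fragments, a fold enrichment of 6.81 and its nearest record 77907 bp away. All 3 were thus single summits in stretches that were otherwise free of records in every list.

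The median length was 269 bp for regions within 1 kb of a GSK record and 297 bp for isolated ones. The widest vehicle-only regions were chr20:21376681-21378269 (1589 bp, 36 fragments), chr17:42296153-42297733 (1581 bp, 136 fragments) and chr16:30180320-30181725 (1406 bp, 40 fragments). Those on chromosomes 20 and 16 were isolated, with GSK records no nearer than 15100 and 12453 bp. The one on chromosome 17 lay 305 bp from a GSK 4 h record and 516 bp from a GSK 24 h record, in a background 16.2 times the genome-wide level.

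Vehicle-only regions were only 8.28% of the vehicle list, and most had no other vehicle-only region as a direct neighbour. Whether runs were more or less common than this share would give was not tested. Of the 8051, 6192 (76.9%) had a vehicle region that was kept in at least 1 GSK list, or the end of the chromosome, as the next vehicle record on each side. The other 1859 lay in runs of consecutive vehicle records that were all vehicle-only, of which 736 runs held 2, 111 held 3, 11 held 4 and 2 held 5. The number of other vehicle records within 50 kb of the summit had a median of 5 for vehicle-only regions and for each of the other groups of vehicle regions. Closer by the groups differed, as another vehicle record lay within 1 kb of 28.4% of vehicle-only regions. This share was 38.1% for vehicle and GSK 4 h, 36.4% for vehicle and GSK 24 h and 41.3% for regions in all 3 lists.

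Runs were ranked by their number of regions, and runs of equal number by their summed -log10 q-value. The first was 5 regions at chr4:714211-741517. Their pileups were 42, 18, 13, 22 and 21 fragments from left to right, and their fold enrichments ranged from 3.55 to 8.24. In this stretch of 27307 bp the GSK 4 h list had 1 record, 75 bp from the leftmost region, and the GSK 24 h list had 0. The second run, chr10:101597808-101651938, held 4 regions close together and 1 farther off, with pileups from 12 to 23 fragments. Each GSK list had 1 record inside it. The third, chr10:23462214-23482304, held 4 regions with pileups from 12 to 48 fragments, and neither GSK list had a record within its 20091 bp.

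By chromosome, the vehicle-only share of vehicle regions ranged from 7.46% (95% interval 6.46 to 8.61) on chromosome 13 to 10.2% (8.98 to 11.5) on chromosome 18. On 19 of 22 chromosomes the interval included the overall 8.28%. The exceptions were chromosome 10 (7.48%, 6.78 to 8.25) on the low side and chromosomes 14 (9.32%, 8.41 to 10.3) and 18 on the high side. The intervals cover counting error only and were not adjusted for the number of chromosomes. Of the 155 strong vehicle-only regions, 18 lay on chromosome 19, which held 3840 vehicle regions, with 16 on chromosome 1 (9600 vehicle regions) and 12 on chromosome 17 (4503). Chromosome 3, with 6591 vehicle regions, held 1 of them and chromosome 5, with 5674, held 2. How many vehicle regions of this strength each chromosome held was not counted. These numbers therefore do not show an excess or a lack on any chromosome. Isolated regions made up 12.2% of those on chromosome 17 and 32.0% of those on chromosome 13, the lowest and highest shares.

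**Figure D4:**
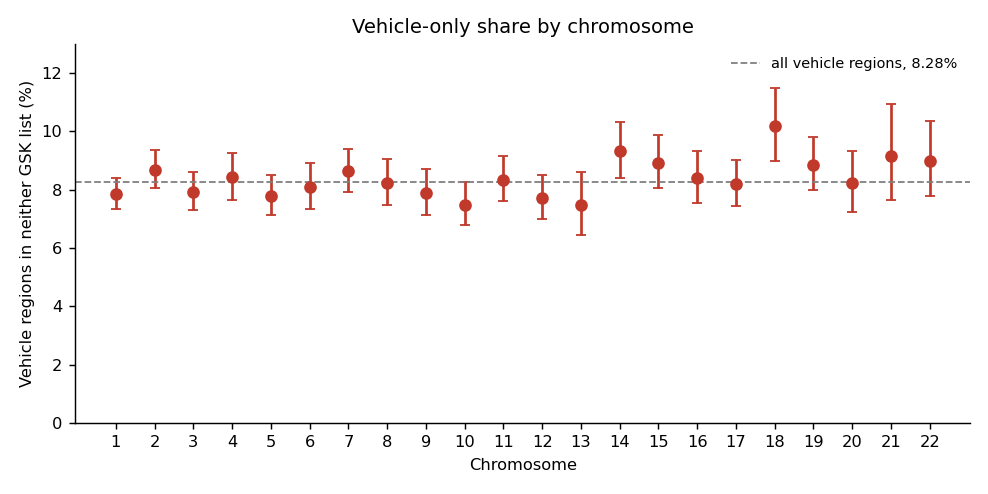
Share of vehicle regions found in neither GSK list (%) on each chromosome, with Wilson 95% intervals and the share over all vehicle regions (8.28%) as a dashed line. The points range from 7.46% on chromosome 13 to 10.2% on chromosome 18, and 19 of 22 intervals include the line.

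Shared regions next to vehicle-only regions did not stand out as lowered. Summit heights were compared at 54453 vehicle regions matched 1 to 1 in both GSK lists, as the log2 ratio of GSK to vehicle height. At the 1302 matched regions within 1 kb of a vehicle-only region, the median log2 ratio was 0.32 at 4 h and 0.21 at 24 h, and 28.0% and 32.2% were lower than in vehicle. At the 49037 matched regions beyond 10 kb, the medians were 0.25 and 0.15, with 32.6% and 37.1% lower. Among the tallest 10% of matched regions by vehicle height the medians were negative in both sets. They were -0.64 (4 h) and -1.17 (24 h) at the 112 within 1 kb of a vehicle-only region, and -1.09 and -1.58 at the 4946 beyond 10 kb. These sets also differed in vehicle pileup, with a median of 147 fragments within 1 kb and 196 beyond 10 kb. The part of this difference in the ratios was not tested. Ranking by vehicle height favours a lower ratio among the tallest 10%, and each matched region needed a record in every list. All of these medians are therefore given as a description.

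At the limit of the rule, regions on either side of the 1 bp overlap had similar median strength. The 393 vehicle-only regions with a GSK record no more than 50 bp away had a median fold enrichment of 3.89, and so had the 490 vehicle regions whose largest overlap with a GSK list was 50 bp or less. Their median -log10 q-values were 4.55 and 4.48. Just inside, chr1:15943978-15944307 (fold enrichment 4.57) touched a GSK 4 h record without overlap, as did chr9:86797421-86797663 (5.19) and chr9:138874447-138874667 (4.35). Just outside, chr18:9136959-9137727 (4.61), chr1:214677117-214677439 (5.12) and chr8:6287123-6287553 (4.43) overlapped a GSK 4 h record by 1 bp and no GSK 24 h record. Which genes lie at the regions named was not analysed here, because no annotation of hg19 was used.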

How the data were processed

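H3K4me2 ChIP-seq records of 6 samples in 3 groups were used as deposited, 1 list per group, made by the authors from both replicates. Per the labels, the submitters' processing notes name BWA 0.7.2-r351, SAMtools 0.1.18 and MACS2 2.0.10.20131216 with the build hg19, without settings. Per record, the deposited lists give a ratio of summit to background as the fold enrichment, its p-value and q-value as -log10, and a display score of about 10 times the -log10 q-value. Read totals are not given in the sources used here, so depth was inferred: the genome-wide background divided by the shortest record length, as tags per kb.

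For each record, the whole-number summit pileup and background were sought for which the fold equals (pileup + 1)/(background + 1) and the p-value is the Poisson chance of exceeding the pileup. A solution within 0.001 on the -log10 p scale was found for all records but 2, both in the vehicle list. This step and the overlap step were tested on simulated data. Python 3.11.15, numpy 2.4.6, pandas 2.3.3 and scipy 1.17.1 were used. Shares have Wilson 95% intervals, which cover counting error only. Records outside chromosomes 1 to 22 were left out (3925 vehicle, 5412 GSK 4 h and 5260 GSK 24 h records).

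The regions named were the 12 with the highest -log10 q-value, the 3 farthest from a GSK record at a -log10 q-value of at least 10, the 3 widest, the 3 longest runs, and 3 on each side of the overlap limit. The 3 leading isolated regions were added after their values were seen. Alternatives were stricter -log10 q-values, other overlap rules, lists of equal length, all of chromosomes 1 to 22, X and Y, and ranking by -log10 p. The regions, their division by distance and the alternatives were chosen with earlier results of these data known. Sequence and gene features could not be added, since no genome of the build was used.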

Additional observations from a re-analysis of the deposited data

Results flagged for a closer look

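Vehicle records outside chromosomes 1 to 22 entered none of the comparisons of the report, and those on X and Y entered only the count with X and Y given under the alternatives. Of these, 190 of 2405 on chromosome X (7.90%, 95% interval 6.89 to 9.05) overlapped no GSK record, as did 32 of 352 on chromosome Y (9.09%, 6.51 to 12.6) and 169 of 1168 on haplotype, unplaced and other sequences (14.5%, 12.6 to 16.6). They are listed because these sequences were left out, not because their counts passed a test. The interval of the last share lies above the 8.28% of chromosomes 1 to 22. The part of repeated or duplicated sequence in this was not tested.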

How the results depend on the processing

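No paired analysis was possible because the replicates of a group had been joined before the records were made, which also kept any replicate from being left out. The sequence and gene features that had been planned were not run. The number of vehicle-only regions (8051) was 7188 with a -log10 q-value of at least 5 in all 3 lists, 10999 when under 50% coverage by each GSK list counted as not shared, and 8273 with X and Y. It was 4096 at 10 in all lists, and 4472 and 1182 with at least 5 and 10 for the vehicle record alone. With a GSK record within 1 kb counted as shared it was 5130, and with 97240 top records in each list 12319. As a share of vehicle regions (8.28%), these settings gave 9.31% and 9.24% at 5 and 10 in all lists, 5.79% and 2.67% for the vehicle record alone, 5.28% within 1 kb, 11.3% by coverage and 12.7% at equal length. Shares with a -log10 q-value limit are of the vehicle regions that passed it, not of all 97240. The 2.67%, for example, is 1182 of 44348. The median length (283 bp) was 292.5 bp within 1 kb and 295 bp by coverage. The median fold enrichment (4.22) was 4.86 and 6.48 at 5 and 10 in all lists and 4.52 within 1 kb. Ranked by -log10 p, the median percentile within the vehicle list went from 31.4 to 24.1. The median distance to a GSK record (2742 bp) was 4650 bp with GSK records of at least 5. On chromosome 13 the share (7.46%) was 9.02% at 5 in all lists, and on chromosome 18 it was 11.3%. Of the 155 regions of at least 30, 59 were left when a GSK record within 1 kb counted as shared, whereas coverage gave 513 and equal length 258 (settings added after the data were seen). The signal of the GSK samples at positions without a record was not measured here.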
